A study of Mus musculus with 6 samples.

Results

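Osteoclasts, the multinucleated cells that resorb bone, form when monocyte and macrophage precursors fuse and then acidify and digest the matrix beneath them. The signal comes from the cytokine RANKL (Tnfsf11), its receptor RANK (Tnfrsf11a) and the growth factor receptor Csf1r, together with immune receptors that carry an ITAM motif, and it ends in the induction of the transcription factor Nfatc1. After a fracture, such cells are known for removing mineralized cartilage and bone while the callus is remodelled. The 8 genes described here are effectors of that program, picked by a rule on gene symbols that uses no measured level. The list was nevertheless chosen with earlier results of these data known. All 8 of the 8 were found among the 30406 genes listed for every library.

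The nuclei came from periosteum, the cell layer that covers bone, of mice labelled C57BL6 (C57BL/6ScNj in the study's methods), and the labels name no transgene or mutation in any group. The 2 uninjured libraries each came from scraped periosteum of the flushed, unbroken tibias of 4 pooled mice, aged 12 weeks, and the 2 libraries of day 3, the single library of day 5 and the single library of day 7 came from periosteum taken with the hematoma or callus of 4 to 9 pooled mice after an open tibial fracture that was left without fixation. Sex was mixed within the pools, so a library is a mixture of animals, and nothing in it can be traced to 1 mouse. Nuclei were sorted on a DNA stain and captured in droplets, and a gene's level is given in CPM, its unique molecular identifiers (UMIs, 1 per captured transcript) per 1000000 UMIs of the nuclei concerned.

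The libraries differed in ways that touch the results below. They held 655 to 4712 barcodes and 1499281 to 29796296 UMIs, and any pair shared at most 7 barcode sequences. Of these, 6299 nuclei were analysed, between 350 and 2098 per library, after limits on genes, mitochondrial and ribosomal UMIs and removal of muscle nuclei. In day 3 replicate 2, 2992 of 4712 barcodes with 66.2% of its UMIs fell outside these limits, against 1 of 754 barcodes in day 3 replicate 1. Uninjured replicate 1, day 5 and day 7 were processed by the authors with Cell Ranger 6.0.0, and uninjured replicate 2 and both day 3 libraries with Cell Ranger 7.1.0. Between day 3 and days 5 and 7, version and time therefore cannot be told apart. The uninjured pair is split between the versions, so day 3 against uninjured is confounded with version in part. Intervals in this text are exact, at 95%, and cover counting error only.

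Nuclei were clustered without the 8 genes or the other osteoclast pathway genes among the clustering features. Clusters were then named from markers that include none of the 8. The osteoclast markers (Calcr, Itgb3, Tnfrsf11a, Siglec15, Slc9b2, Car2 and Jdp2) are themselves pathway genes. Myeloid nuclei (macrophage/monocyte-like, dendritic-like, neutrophil-like and osteoclast-like) numbered 23 and 67 without injury, 156 and 687 on day 3, 537 on day 5 and 124 on day 7. Stromal nuclei, which pool skeletal stem/progenitor (SSPC-like), fibroblast-like, injury-induced fibrogenic (IIFC-like), tendon-like, osteoblast-like and chondrocyte-like nuclei, numbered 129, 383, 137, 278, 1118 and 733 in the same order of libraries. In such data, fewer cells of a type and less RNA per cell cannot be told apart in a whole-library level.

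The osteoclast-like cluster held 87 nuclei at a median of 2156 UMIs, of which the uninjured pair gave 3 and 2, the day 3 pair 19 and 16, the day 5 library 26 and the day 7 library 21. Its name rests on 4 markers detected in at least 10% of its nuclei. Jdp2 was at 1294 CPM, Slc9b2 at 1055 CPM and Itgb3 at 470 CPM (an AP-1 family factor, a proton exchanger and the beta 3 integrin chain), against 56.7, 3.35 and 2.72 CPM in macrophage/monocyte-like nuclei. Tnfrsf11a, the least specific, was at 976 against 539 CPM. The markers Calcr, Siglec15 and Car2 were found in only 9.20%, 8.05% and 6.90% of the nuclei. Several of the markers were not even over time. Itgb3 was at 0 in the 19 nuclei of day 3 replicate 1 and at 11.1 CPM in day 3 replicate 2, and reached 830 CPM at day 5 and 574 CPM at day 7. Calcr, the calcitonin receptor of mature osteoclasts, was at 0, 11.1, 144 and 143 CPM in these 4 libraries. Jdp2 was already at 724 and 633 CPM at day 3, against 1715 CPM at day 5 and 1722 CPM at day 7. The nuclei of both day 3 libraries together thus held 1 UMI of Itgb3 and 1 of Calcr. Slc9b2 was also read by library when every barcode with at least 200 genes was clustered. The osteoclast-like barcodes within the limits then had 42.7 and 216 CPM of Slc9b2 at day 3, 1336 CPM at day 5 and 2105 CPM at day 7. Macrophage markers were lower in the cluster than in macrophage/monocyte-like nuclei for 9 of 10 genes, Mrc1 at 38.1 against 1416 CPM, and Csf1r was the exception at 423 against 321 CPM.

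Among the genes of resorption, Ctsk encodes cathepsin K, the collagen-degrading protease of the osteoclast, and lies on chromosome 3 (95499256 to 95509362, plus strand, GRCm38). Oscar, a regulator, encodes an ITAM-associated collagen receptor and lies on chromosome 7 (3609813 to 3616157, minus strand). The 250 bases before their annotated starts are shown because both genes had their highest level in osteoclast-like nuclei, and because recognition sequences of PU.1, the myeloid factor behind the lineage, and of NFAT factors could be looked up in them. The other members also had their highest level there, and the windows of Acp5 are counted below but not printed. Capitals mark matches on either strand to GAGGAAG (PU.1), GGAAA (the NFAT core), CATGTG (an E-box used by MITF) and TGANTCA (AP-1).
Ctsk, chr3:95498960-95499209: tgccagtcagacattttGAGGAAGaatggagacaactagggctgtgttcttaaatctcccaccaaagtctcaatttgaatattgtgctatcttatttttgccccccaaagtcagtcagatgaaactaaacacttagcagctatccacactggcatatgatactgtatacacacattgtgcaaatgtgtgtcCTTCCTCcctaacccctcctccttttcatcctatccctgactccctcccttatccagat
Oscar, chr7:3616158-3616407: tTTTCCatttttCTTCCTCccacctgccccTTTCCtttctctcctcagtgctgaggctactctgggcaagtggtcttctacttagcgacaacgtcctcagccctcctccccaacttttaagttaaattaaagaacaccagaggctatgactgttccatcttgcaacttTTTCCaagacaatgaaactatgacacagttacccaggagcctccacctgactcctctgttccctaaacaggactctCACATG
Both sequences are from RefSeq on GRCm38.p6, written on the strand of the gene. The window of Ctsk held 2 matches to the PU.1 letters and that of Oscar held 1, letters found in 10.6% of all 32851 promoter windows of this length. The windows at the 3 starts of Acp5 held no match to the PU.1 letters. Oscar held 3 matches to the NFAT core, which 55.6% of all windows contain, and 1 to the E-box, which 12.3% contain. Ctsk held no match to either, and the windows of Acp5 held 1 or 2 matches to the NFAT core, with the E-box in 1 window. No window of Ctsk, Oscar or the 3 starts of Acp5 held TGANTCA, which 6.75% of all windows contain. A match gives letters only and shows no binding.

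Ctsk was found in the osteoclast-like nuclei of 5 of the 6 libraries. Its level there was 1663 CPM (4 UMIs in 2 of 3 nuclei) in uninjured replicate 1, 0 in uninjured replicate 2, 211 CPM in day 3 replicate 1, 222 CPM in day 3 replicate 2, 1824 CPM at day 5 (interval 1612 to 2057) and 1052 CPM at day 7 (765 to 1413). Both day 3 values lay below those of days 5 and 7 with intervals that did not touch them, and the uninjured libraries had too few nuclei to place. These values, and those of the other members below, are of nuclei within the limits. When every barcode with at least 200 genes was clustered, 22 osteoclast-like barcodes of day 3 replicate 2 outside the limits had Ctsk at 2143 CPM. Ctsk had a UMI in 4 of 19 and 4 of 16 nuclei at day 3, in 23 of 26 at day 5 and in 16 of 21 at day 7.

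Acp5 encodes tartrate-resistant acid phosphatase, the enzyme by which osteoclasts are stained in tissue, and lies on chromosome 9 (22126727 to 22135711, minus strand). In osteoclast-like nuclei it was at 0 in uninjured replicates 1 and 2 and in day 3 replicate 1, at 77.8 CPM in day 3 replicate 2, at 768 CPM at day 5 (632 to 924) and at 143 CPM at day 7 (52.7 to 312). The 0 of day 3 replicate 1, over 19 nuclei, allows up to 90.5 CPM (3 counts). Acp5 differed most between the last time points, with a UMI in 23 of 26 nuclei at day 5 and in 5 of 21 at day 7, where the median depth was 3364.5 and 1774 UMIs.

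Atp6v0d2 encodes an isoform of subunit d of the proton pump's membrane sector, which is needed for acid secretion and for fusion, and lies on chromosome 4 (19876841 to 19922605, minus strand). It was detected in osteoclast-like nuclei of every library. The values were 9144 CPM (22 UMIs in 3 of 3 nuclei) and 1422 CPM (2 UMIs in 1 of 2 nuclei) without injury, 241 and 178 CPM on day 3, 3429 CPM (3135 to 3743) on day 5 and 2152 CPM (1731 to 2646) on day 7. The 2 day 3 libraries were the lowest for Atp6v0d2, with Atp6v0d2 in 3 of 19 and 3 of 16 nuclei against 26 of 26 at day 5.

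Mmp9, on chromosome 2 (164940780 to 164955850, plus strand), encodes the gelatinase with which osteoclasts and neutrophils open matrix. Its osteoclast-like level was 1247 CPM (3 UMIs) and 0 without injury, 90.5 CPM (3 UMIs) and 256 CPM on day 3, 535 CPM (423 to 668) on day 5 and 478 CPM (292 to 739) on day 7. The interval of day 3 replicate 2, 162 to 384 CPM, ended below that of day 5 and overlapped that of day 7.

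The fusion genes were found in the osteoclast-like nuclei of the same 3 libraries as Acp5. Dcstamp, on chromosome 15 (39745930 to 39760938, plus strand), and Ocstamp, on chromosome 2 (165393760 to 165400405, minus strand), encode the membrane proteins required for precursors to fuse. Dcstamp was at 0 in both uninjured libraries and in day 3 replicate 1, at 122 CPM in day 3 replicate 2 (11 UMIs in 2 of 16 nuclei), at 309 CPM at day 5 (45 UMIs in 8 of 26 nuclei) and at 263 CPM at day 7 (11 UMIs in 7 of 21 nuclei). Ocstamp was at 0 in the same 3 libraries, and reached 11.1 CPM in day 3 replicate 2 (1 UMI), 75.4 CPM at day 5 (11 UMIs) and 143 CPM at day 7 (6 UMIs). Their intervals at days 5 and 7 overlapped.

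Among the regulators, Oscar was at 0 in both uninjured libraries and in day 3 replicate 1, at 22.2 CPM in day 3 replicate 2 (2 UMIs in 1 of 16 nuclei), at 226 CPM at day 5 (156 to 318) and at 167 CPM at day 7 (67.3 to 345). Nfatc1, the master transcription factor of the program, lies on chromosome 18 (80606205 to 80713071, minus strand) under an antisense gene. Like Atp6v0d2, it was found in osteoclast-like nuclei of all 6 libraries: 831 and 711 CPM without injury (2 and 1 UMIs), 513 CPM (299 to 821) and 645 CPM (489 to 833) on day 3, 1248 CPM (1073 to 1443) on day 5 and 1148 CPM (846 to 1522) on day 7. It had a UMI in 11 of 19 and 13 of 16 nuclei at day 3.

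**Figure D1:**
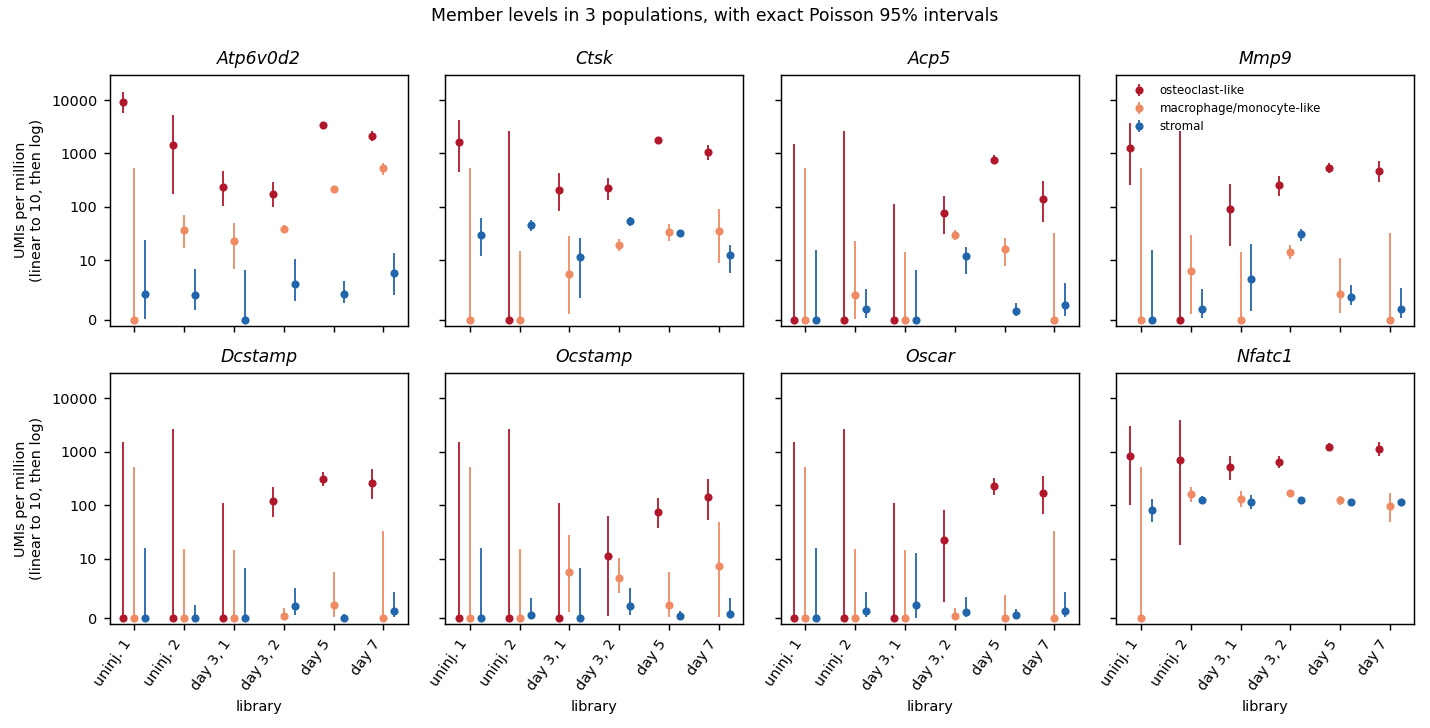
Level of each of the 8 genes in CPM (vertical axis, linear to 10 and logarithmic above) in each of the 6 libraries (horizontal axis; uninjured and day 3 are shown as replicate 1 and 2), for osteoclast-like, macrophage/monocyte-like and stromal nuclei, with exact Poisson 95% intervals. In osteoclast-like nuclei within the limits, Ctsk is at 222 CPM in day 3 replicate 2 and at 1824 CPM at day 5. Nfatc1 is at 513 CPM or more in every library. Barcodes outside the limits are not shown, and 22 osteoclast-like ones of day 3 replicate 2 had Ctsk at 2143 CPM.

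The number of the 8 genes found in 1 nucleus summarizes the difference between time points. The median was 3 and 1 without injury (3 and 2 nuclei), 1 in each day 3 library, 6 on day 5 and 4 on day 7. Of the 19 nuclei of day 3 replicate 1, 7 had none of the 8, and no nucleus of day 5 had fewer than 3. Depth moved with this, at medians of 1545, 2781.5, 3364.5 and 1774 UMIs from day 3 replicate 1 to day 7. Brought to 500 UMIs per nucleus, the expected number was 0.427 ± 0.554 (SD over 19 nuclei) and 0.828 ± 1.07 (16 nuclei) at day 3, 2.50 ± 0.843 (26 nuclei) at day 5 and 1.81 ± 0.796 (21 nuclei) at day 7, so that the order stayed at equal depth. Nuclei of 1 library are not replicates, and days 5 and 7 have 1 library each, so no test was made. All of these nuclei were within the limits, and 22 osteoclast-like barcodes of day 3 replicate 2 outside them had a median of 5 members.

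**Figure D2:**
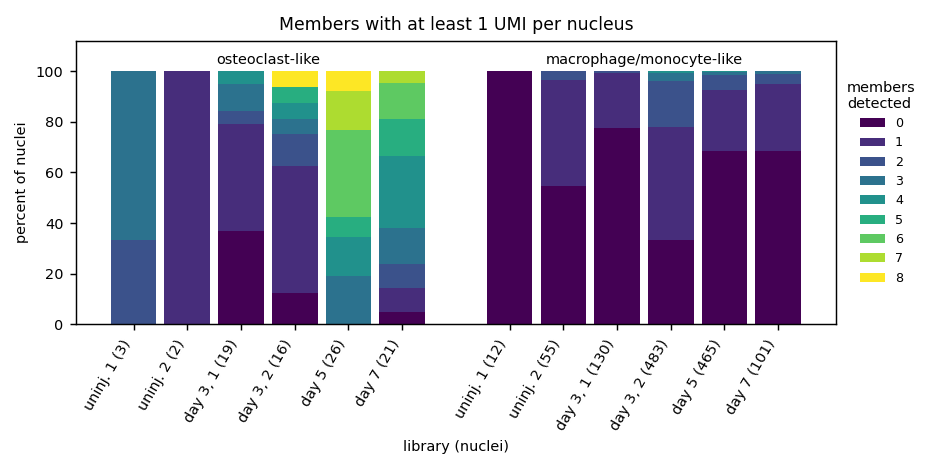
Percent of nuclei (vertical axis) by how many of the 8 genes had at least 1 UMI (colour, 0 to 8), for each library (horizontal axis, number of nuclei in brackets), in osteoclast-like and macrophage/monocyte-like nuclei. Medians are 1 in both day 3 libraries, 6 at day 5 and 4 at day 7 in osteoclast-like nuclei within the limits.

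Nuclei with at least 4 of the 8 genes numbered 48 of 6299, and 38 of these were in the osteoclast-like cluster (21 from day 5, 13 from day 7, and 1 and 3 from day 3 replicates 1 and 2). The other 10 were spread over 5 groups. Macrophage/monocyte-like nuclei held 5, and IIFC-like, fibroblast-like and osteoblast-like nuclei held 1 each, all 3 from day 3 replicate 2. The unnamed clusters held the remaining 2, of which 1 nucleus of uninjured replicate 2 had all 8 genes, with 14 UMIs of Ctsk, 9 of Atp6v0d2 and 3 of Oscar, and 1 of day 5 had 6. All 8 genes were found in 4 nuclei, 3 of them osteoclast-like.

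Pooled over libraries, each of the 8 genes had its highest CPM in osteoclast-like nuclei. These were 1.38% of the nuclei and 1.36% of the UMIs. They held 73.6% of the UMIs of Dcstamp, 68.9% of Oscar, 56.0% of Atp6v0d2, 36.1% of Acp5, 34.4% of Ctsk, 30.5% of Mmp9, 28.1% of Ocstamp and 9.54% of Nfatc1. The shares differed by library. At day 5 they were 86.8% for Oscar, 84.9% for Dcstamp, 79.4% for Acp5, 67.8% for Mmp9 and 50.8% for Ctsk, and in day 3 replicate 2 they were 28.6%, 52.4%, 4.58%, 9.24% and 7.94% for the same genes.

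**Figure D3:**
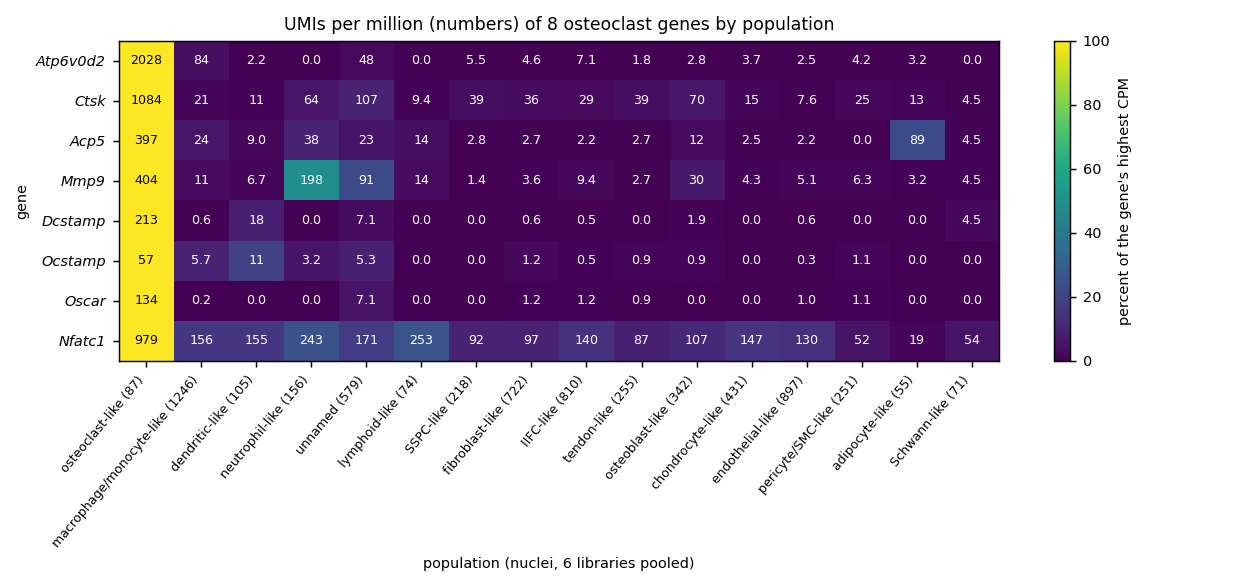
Level of each gene (rows) in each population (columns, number of nuclei in brackets), pooled over the 6 libraries. The number in a field is the CPM and the colour is the percent of that gene's own highest level, which is in the osteoclast-like column for all 8; Mmp9 reaches 198 CPM in neutrophil-like nuclei against 404 CPM there.

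RNA that leaks between nuclei gives some UMIs everywhere, so shares of nuclei with a UMI were read against endothelial-like nuclei (median 2177 UMIs) and pericyte/smooth muscle-like nuclei (median 2703 UMIs), with every nucleus thinned to 500 UMIs. Atp6v0d2 was found in 44.8% of osteoclast-like nuclei (interval 34.1 to 55.9%), in 0 of 896 endothelial-like nuclei (which allows up to 0.335%) and in 0.398% of pericyte/smooth muscle-like nuclei. The shares of Ctsk were 34.5%, 0.223% and 0.797%, and those of Mmp9 were 20.7%, 0.223% and 0%. For 6 of the 8 genes the osteoclast-like interval lay above both of these background intervals. Ocstamp, at 2.30%, and Dcstamp, at 4.60%, did not clear them at this depth, and did when nuclei were thinned to 1000 UMIs. Nfatc1 had the highest shares in the comparison populations, with 35.6% against 5.13% and 3.59%. Its level was broad (given below), and whether its UMIs there are leaked RNA or their own was not tested.

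Outside osteoclast-like nuclei, Atp6v0d2 was mainly a gene of macrophages. Its level in macrophage/monocyte-like nuclei was 0 and 37.1 CPM without injury, 23.4 and 38.4 CPM on day 3, 218 CPM on day 5 and 525 CPM on day 7, and it had a UMI in 54 of 465 nuclei at day 5 and in 24 of 101 at day 7. The 3 macrophage clusters were unlike each other. In the cluster led by Arg1 and Hmox1 (genes of arginine and heme breakdown) Atp6v0d2 was at 38.0 and 33.4 CPM at day 3, at 425 CPM (363 to 495) at day 5 in 30 of 156 nuclei, and at 895 CPM (645 to 1209) at day 7 in 16 of 31 nuclei. In the cluster led by Hpgds and Mrc1 it was at 68.6 CPM at day 5 and 316 CPM at day 7, and in the cluster led by Ccr2, a receptor of recruited monocytes, at 74.7 and 120 CPM. At both times the interval of the Arg1 cluster lay above those of the other 2 clusters. In neutrophil-like nuclei no library had a UMI of Atp6v0d2. The larger unnamed cluster, nearest to neutrophils by its markers, had a mean of 111 CPM over 4 libraries, from 0 to 294 CPM.

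Most macrophages with Atp6v0d2 had none of 6 of the other genes. Of the 104 macrophage/monocyte-like nuclei with a UMI of Atp6v0d2, 24.0% had any of Acp5, Ctsk, Oscar, Ocstamp, Dcstamp or Mmp9, against 15.8% of the 1142 without it, at medians of 2295 and 2312 UMIs. Among the 52 osteoclast-like nuclei with Atp6v0d2 the share was 94.2%, at a median of 2819 UMIs. Oscar and Dcstamp were found in 0 of the 104. Of the 104, 2.88% were among the barcodes with the highest doublet scores, against 2.80% of the 1142. In day 3 replicate 2, 34 of the 124 Atp6v0d2 UMIs of macrophages were in 1 nucleus.

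**Figure D4:**
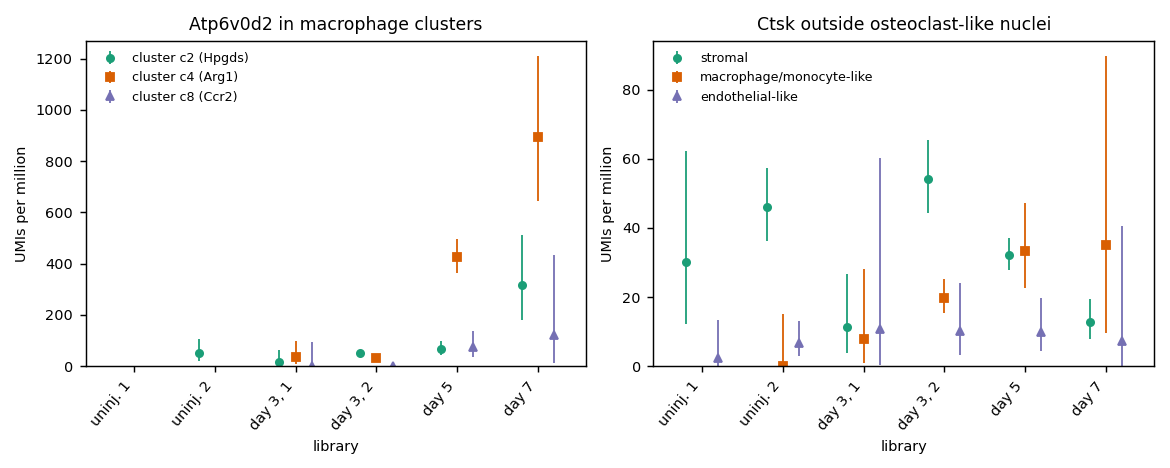
Left, Atp6v0d2 in the 3 macrophage clusters, and right, Ctsk in stromal, macrophage/monocyte-like and endothelial-like nuclei, in CPM (vertical axis) by library (horizontal axis), with exact Poisson 95% intervals; points resting on fewer than 20 nuclei are left out. Atp6v0d2 reaches 425 CPM at day 5 and 895 CPM at day 7 in the Arg1 cluster, and stromal Ctsk lies between 11.4 and 54.1 CPM.

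Ctsk was higher in stromal than in endothelial-like nuclei. Its level in stromal nuclei was 30.3 and 45.9 CPM without injury, 11.4 and 54.1 CPM on day 3, 32.2 CPM on day 5 and 12.8 CPM on day 7, a mean of 31.1 ± 17.2 CPM (SD, n = 6 libraries). Endothelial-like nuclei gave 2.38, 6.66, 10.8, 10.3, 9.96 and 7.29 CPM, a mean of 7.90 ± 3.19 CPM. Stromal nuclei were higher in 6 of 6 libraries, with overlapping intervals in uninjured replicate 1, day 3 replicate 1 and day 7. Pericyte/smooth muscle-like nuclei, at 25.2 CPM pooled (16.2 to 37.5) and a mean of 28.4 ± 18.5 CPM over the 4 libraries with at least 20 of them, had both values within the stromal range. Ctsk was spread over the stromal populations at 29.0 to 69.8 CPM except chondrocyte-like nuclei, at 14.9 CPM. The osteoblast-like value of day 3 replicate 2, 294 CPM in 26 nuclei, came mostly from 1 nucleus. That nucleus had 36 of the 45 UMIs of Ctsk, 22 of the 23 of Mmp9 and 10 of the 11 of Acp5 and held 7 of the 8 genes. It also gave 36 of the 75 UMIs behind the 69.8 CPM, which is the pooled osteoblast-like value. The 54.1 CPM of stromal nuclei in day 3 replicate 2, and so the stromal mean, include it too.

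Acp5 outside the osteoclast-like cluster was highest in adipocyte-like nuclei. It had 3 UMIs in 3 of 19 of these nuclei in uninjured replicate 1 (83.0 CPM) and 24 UMIs in 9 of 25 in uninjured replicate 2 (106 CPM), and the later libraries held too few adipocyte-like nuclei to compare. In macrophage/monocyte-like nuclei Acp5 was at 0, 4.12, 0, 30.1, 16.1 and 0 CPM in the order of the libraries, and 72 of 483 nuclei of day 3 replicate 2 had a UMI. Endothelial-like nuclei of that library had none in 63 nuclei, which allows up to 6.19 CPM.

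Mmp9 was shared with neutrophils. Neutrophil-like nuclei, 133 of 156 of which came from day 3 replicate 2, held it at 216 CPM in that library, with a UMI in 44 of 133 nuclei, and the unnamed clusters, of which the larger was nearest to neutrophils by its markers, at 142 CPM in 33 of 260 nuclei. Macrophage/monocyte-like nuclei of the same library were at 14.6 CPM and stromal nuclei at 30.6 CPM. The stromal value includes the osteoblast-like nucleus described above for Ctsk, which held nearly all osteoblast-like UMIs of Mmp9 in that library. Stromal Mmp9 was at 0, 1.79, 6.86, 3.90 and 1.82 CPM in the other libraries.

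Nfatc1 was broad. In stromal nuclei it was at 82.2, 128, 117, 127, 115 and 114 CPM in the order of the libraries (mean 114 ± 16.6 CPM, n = 6), in endothelial-like nuclei at 160, 145, 43.3, 109, 111 and 160 CPM, and in lymphoid-like nuclei at 253 CPM pooled. Stromal and endothelial-like nuclei did not differ beyond the spread between libraries. Oscar, Ocstamp and Dcstamp were low outside the cluster, with pooled levels of at most 17.9 CPM (Dcstamp in dendritic-like nuclei) in any other named population. Macrophage/monocyte-like nuclei nevertheless held 27 of the 64 UMIs of Ocstamp (42.2%), at 5.65 CPM. That was more UMIs than the 18 of osteoclast-like nuclei.

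Myeloid and stromal nuclei of the same library were then compared on the log2(CPM + 10) scale. The test was an exact two-sided permutation of signs over the 6 libraries, for which the smallest possible p is 0.03125. An adjusted p under 0.05 would need most of the 8 genes to reach that smallest p together, so not passing it decides little. Atp6v0d2 was higher in myeloid nuclei in 6 of 6 libraries, by 3.94 ± 2.24 (SD), Mmp9 in 6 of 6 by 1.89 ± 1.83 and Nfatc1 in 6 of 6 by 0.81 ± 0.48, each with p = 0.03125 and an adjusted p of 0.0833 over the 8 genes by the exact test, which does not pass 0.05. Acp5 was higher in 5 of 6 libraries by 1.55 ± 1.41 (exact p = 0.0625, adjusted 0.125), Ctsk in 4 of 6 by 1.14 ± 2.39 (exact p = 0.25, adjusted 0.286), and Ocstamp in 4, Dcstamp in 3 and Oscar in 2 of 6. With osteoclast-like nuclei left out, a choice made after seeing the data, Ctsk was lower in myeloid than in stromal nuclei in 5 of 6 libraries, by 0.81 ± 1.28 (exact p = 0.188, adjusted 0.3). Atp6v0d2 was still higher in 5 of 6, by 2.16 ± 1.92 (exact p = 0.0625, adjusted 0.25), and the means of Mmp9 and Nfatc1 turned to -0.0782 (higher in 2 and lower in 3 of 6) and -0.37 (higher in 4 and lower in 2 of 6). The value of Nfatc1 rested on uninjured replicate 1, at -3.20, whose 20 remaining myeloid nuclei held 0 UMIs of it, and without that library the mean was 0.20 ± 0.24 (exact p = 0.188, adjusted 0.375), while that of Ctsk was -0.57 and that of Mmp9 -0.0938.

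Day 3 was the only time with a second library, and it was compared with the uninjured pair on the UMI sums of each library by edgeR's quasi-likelihood test and Benjamini-Hochberg adjustment. Over all nuclei, 5 of the 8 genes passed the filter on low counts and 0 were called at an adjusted p under 0.05, beside 1111 of 12668 genes, 8.77% of those tested (2.75% rose and 6.02% fell). Mmp9 was at 5.47 and 4.09 CPM in the uninjured libraries and at 6.85 and 35.6 CPM at day 3, where the 2 replicates lay far apart. Its log2 fold change was 2.21 (SE 0.787, edgeR adjusted p = 0.142), and it was the 1 gene of the 5 with an unadjusted p under 0.05. Acp5 was at 5.47, 9.20, 0 and 21.9 CPM, Ctsk at 16.4, 27.1, 19.4 and 36.1 CPM, Atp6v0d2 at 25.2, 7.41, 16.0 and 22.2 CPM and Nfatc1 at 109, 122, 126 and 161 CPM in the same 4 libraries, with log2 fold changes of 0.28 to 0.62. DESeq2 called 0 of the 5 as well. Oscar, Ocstamp and Dcstamp were not tested, at 0 to 4.58 CPM.

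The later libraries lay above these values for several genes of resorption and fusion. Over all nuclei Atp6v0d2 was at 89.8 CPM at day 5 and 80.5 CPM at day 7, above each of the 4 earlier libraries, and so were Oscar at 4.55 and 4.31 CPM and Dcstamp at 6.34 and 6.71 CPM. Ctsk was at 62.7 CPM at day 5, above the earlier libraries, and at 36.4 CPM at day 7, close to day 3 replicate 2. Acp5, at 16.9 and 5.27 CPM, Mmp9, at 13.8 and 12.0 CPM, and Ocstamp, at 2.15 and 4.31 CPM, were exceeded by day 3 replicate 2, where Ocstamp was at 4.58 CPM. With 1 library at each of these times there is no replicate check.

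In myeloid nuclei, 2 of the 8 genes were tested and 0 called, beside 15 of 5225 genes, 0.287%, all of them lower at day 3. Atp6v0d2 was at 1426 and 41.6 CPM in the uninjured libraries and at 46.5 and 35.5 CPM at day 3, so that 1 uninjured library set the difference. Its log2 fold change was -3.49 (SE 1.03, edgeR adjusted p = 0.205, unadjusted p = 0.00283). It was 0.0197 without uninjured replicate 1, whose 23 myeloid nuclei included the 3 osteoclast-like ones, and -4.30 without uninjured replicate 2, where it was called (edgeR adjusted p = 0.00166). Nfatc1 was at 130, 182, 169 and 184 CPM, a log2 fold change of 0.17 (SE 0.600). DESeq2 called 0 of the 2.

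In stromal nuclei, 2 genes were tested and 0 called, beside 862 of 9967 genes, 8.65% (3.65% rose and 5% fell), and none of the 2 had an unadjusted p under 0.05. Ctsk had a log2 fold change of -0.29 (SE 0.600, edgeR adjusted p = 0.845) and Nfatc1 of 0.11 (SE 0.361, edgeR adjusted p = 0.908). DESeq2 called 0. Mmp9 did not pass the filter. Its log2 fold change was 4.13 with day 3 replicate 1 left out and 3.35 with uninjured replicate 1 left out. In both fits it rested on the 61 UMIs of day 3 replicate 2. These include the UMIs of the osteoblast-like nucleus described above for Ctsk, which held several members. In the same stromal nuclei, genes of myeloid cells were called higher at day 3, namely Btk at 7.33, Spi1 at 5.48, Ctss at 4.99 and Csf1r at 3.70 on the log2 scale (edgeR adjusted p of 0.0105 to 0.0271), and their part in the value of Mmp9 was not tested.

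The share of osteoclast-like nuclei among myeloid nuclei was 13% (3 of 23, interval 2.78 to 33.6%) and 2.99% (2 of 67, 0.364 to 10.4%) without injury, 12.2% (19 of 156, 7.49 to 18.4%) and 2.33% (16 of 687, 1.34 to 3.75%) on day 3, 4.84% (26 of 537, 3.19 to 7.01%) on day 5 and 16.9% (21 of 124, 10.8 to 24.7%) on day 7. The 2 day 3 replicates differed from each other by more than the means of day 3 and uninjured, for which day 3 minus uninjured was -0.76 percentage points. With 2 libraries against 2, no exact test could reach 0.05. The day 3 nuclei are counted by their cluster, although they nearly lacked the osteoclast markers Itgb3 and Calcr. As a share of all nuclei, osteoclast-like nuclei were 0.630% (0.130 to 1.83%) and 0.218% (0.0265 to 0.786%) without injury, 5.43% (3.30 to 8.35%) and 1.19% (0.680 to 1.92%) on day 3, 1.24% (0.811 to 1.81%) on day 5 and 1.89% (1.17 to 2.87%) on day 7. On this scale each fracture library lay above both uninjured ones, with intervals that overlapped that of uninjured replicate 1 except for day 3 replicate 1. This order did not hold when every barcode with at least 200 genes was clustered. The share was then 2.07% in uninjured replicate 1, 1.91% in day 3 replicate 2, 1.32% at day 5 and 0.666% at day 7.

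The other genes of the pathway were ranked over populations in the same way. Of the genes with at least 100 UMIs, the highest level lay in osteoclast-like nuclei for 5 of 5 members, for 8 of 9 acid secretion genes, for 3 of 7 adhesion and podosome genes, for 3 of 7 transcription factors, for 3 of 10 receptor and ITAM signalling genes, for 0 of 5 fusion partners and for 0 of 3 ligands, beside 9.71% of all 12282 genes. Itgb3, Jdp2 and Tnfrsf11a, 1 each in the adhesion, transcription and receptor counts, are also markers from which the cluster was named, so their place is not independent of the naming. Tcirg1 (the pump's osteoclast subunit a3) was at 941 CPM and Atp6v1b2 at 935 CPM there, Itgav (the integrin partner of Itgb3) at 1968 CPM, Jdp2 at 1294 CPM and Tnfrsf11a at 976 CPM, against 349, 262, 602, 56.7 and 539 CPM in macrophage/monocyte-like nuclei. Tcirg1, unlike the members, was about even over time, at 965 and 1033 CPM at day 3, 864 CPM at day 5 and 909 CPM at day 7. The broadly expressed relatives of the members showed another pattern, with 0 of 9 highest in osteoclast-like nuclei. Atp6v0d1, the common isoform of Atp6v0d2, was at 153 CPM there and 217 CPM in macrophage/monocyte-like nuclei, and Ctsb, a lysosomal cathepsin related to Ctsk, at 245 and 1368 CPM. Irf8 and Lilrb4a, inhibitors of differentiation, were at 25.4 and 31.8 CPM in osteoclast-like nuclei against 167 and 184 CPM in macrophage/monocyte-like nuclei.

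In the same tests over all nuclei, 1 of 10 receptor genes (Fcer1g, 3.48 on the log2 scale, edgeR adjusted p = 0.0314) and the inhibitors Irf8 (4.25, edgeR adjusted p = 0.0272) and Lilrb4a (3.97, edgeR adjusted p = 0.0405) rose at day 3, and 1 of 10 acid secretion genes (Snx10, 1.34, edgeR adjusted p = 0.0453) rose. Of the adhesion genes, Itgav rose by 1.60 and Gsn and Itgb3 fell by 3.43 and 2.07 on the log2 scale. Of 5 fusion partners, Adam8 and Adam12 rose and Cd9 fell. Gsn was highest in SSPC-like (1274 CPM), Adam12 in IIFC-like (1897 CPM), Cd9 in Schwann-like (847 CPM) and Adam8 in neutrophil-like nuclei (179 CPM). Itgav and Itgb3 were highest in osteoclast-like nuclei. Itgb3 came next in endothelial-like nuclei (66.6 CPM), which numbered 210 and 263 without injury and 39 and 63 on day 3. The part of cell makeup in these calls was not tested. None of 7 transcription factors and of 9 relatives was called. The median log2 fold change was 0.30 over the 5 members tested, 2.60 over the receptors and 0.89 over the acid secretion genes, beside 0.01 over all genes, and the myeloid share of nuclei moved with it, from 23 of 476 and 67 of 916 nuclei to 156 of 350 and 687 of 1348. In myeloid nuclei none of the pathway genes tested was called by edgeR.

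The ligand Tnfsf11 was called higher in stromal nuclei at day 3 (4.25 on the log2 scale, edgeR adjusted p = 0.0152), with 0 and 3.58 CPM in the uninjured libraries and 80.0 and 40.6 CPM at day 3, and stood at 42.9 CPM at day 5 and 26.7 CPM at day 7. Its decoy receptor Tnfrsf11b was at 0, 8.95, 4.57, 5.51, 23.9 and 12.8 CPM in the same nuclei.

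Genes with the pattern most like that of the members were looked for over 55 sums of a population in a library, of which 2 were osteoclast-like. Nyap2 (r = 0.85), Rufy4 (r = 0.82), Abcb4 (r = 0.81), the marker Slc9b2 (r = 0.80) and Xpr1 (r = 0.76) came closest to the mean profile of the 5 members with at least 100 UMIs. These points share libraries and depth, and the likeness rests on 2 osteoclast-like points. Nyap2 was at 1653 CPM in osteoclast-like nuclei and 1.80 CPM elsewhere.

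The barcodes outside the limits held most of the members' UMIs in 1 library. In day 3 replicate 2 they had 91.4% of the UMIs of Ctsk (3027 of 3313), 87.9% of Acp5, 84.7% of Atp6v0d2, 84.2% of Mmp9, 80.9% of Dcstamp, 80.4% of Ocstamp, 76.6% of Oscar and 68.1% of Nfatc1, against 66.2% of all its UMIs. At day 7, where 2097 barcodes with 41% of the UMIs fell outside, they had 7.32% of Ctsk and 7.61% of Atp6v0d2. When every barcode with at least 200 genes was clustered, a choice made after seeing the data, 45 barcodes of day 3 replicate 2 were osteoclast-like, 23 of them within the limits and 22 outside. The 22 had a median of 14965 UMIs and of 7.06% mitochondrial UMIs, 9 had over 5000 genes, and 1 was among the highest doublet scores. They held Ctsk at 2143 CPM (1108 UMIs), Mmp9 at 1033 CPM, Acp5 at 764 CPM and Atp6v0d2 at 714 CPM, with a median of 5 of the 8 genes, against 153 CPM of Ctsk and a median of 1 in the 23. Itgb3 was at 23.2 CPM and Calcr at 0 in the 22. Endothelial-like barcodes of the same library outside the limits had Ctsk at 15.9 CPM and macrophage/monocyte-like ones at 40.1 CPM, while the 65 osteoblast-like ones had Ctsk at 583 CPM (207 UMIs), Mmp9 at 312 CPM and Acp5 at 206 CPM, and the 150 unnamed ones Ctsk at 114 CPM. A further 39.2% of the Ctsk UMIs of this library lay in barcodes removed as muscle in that clustering. The low day 3 values of osteoclast-like nuclei above hold for nuclei within the limits only.

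**Figure D5:**
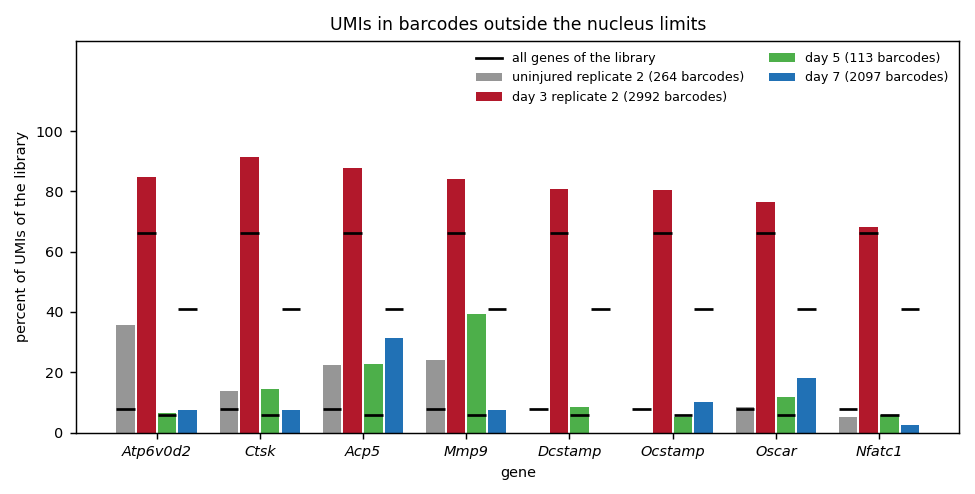
Percent of each gene's UMIs (vertical axis) that lay in barcodes outside the limits on genes, mitochondrial and ribosomal UMIs, for the 4 libraries with more than 100 such barcodes (colour); the black line is the percent of all UMIs of that library. In day 3 replicate 2 the bars lie between 68.1% and 91.4%, above its line at 66.2%, and at day 7 each bar lies below its line at 41%.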

How the data were processed

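Nuclei of 6 libraries were analysed from the raw UMI counts that the authors deposited, which Cell Ranger had produced on mm10, introns included, without normalization. Barcodes were kept if they had 200 to 5000 genes, less than 2% of UMIs from mitochondrial genes and less than 1.5% from ribosomal genes. Muscle clusters, with 50% or more of the nuclei positive for 3 or more of 6 muscle markers, were taken out. Libraries were integrated with Seurat 5.3.0 (20 components, resolution 1.3) without the 8 members and the pathway genes among the features. A cluster was named from its markers and stayed unnamed where fewer than 3 were detected or its leading genes went against the name. The authors' own names were not used here, so the populations are rebuilt. Scrublet (expected rate 6%) marked only 1 of 644 and 1 of 1720 nuclei in 2 libraries at its automatic limit, so the highest 6% of scores stood in for doublets, which were kept except in 1 alternative.

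UMIs were summed per library for all, myeloid and stromal nuclei, and day 3 was tested against uninjured with edgeR 4.0.16 (filterByExpr, TMM, glmQLFit, glmQLFTest; adjusted p under 0.05), with DESeq2 1.42.0 as an alternative. Libraries are pools of mice, so p-values measure the spread between pools. On simulated counts with log2 fold changes of 3, the tests recovered 92% of the changed genes for all nuclei (12821 genes), 70.2% for myeloid nuclei (5253 genes) and 94.4% for stromal nuclei (9955 genes). The simulation gave every gene the same dispersion and drew the changed genes from those passing the filter. It therefore does not give the recovery for members with low counts or with replicates far apart. Log2 values of CPM had 10 CPM added. Floors are 3 counts. Gene positions follow GENCODE mouse release 21, and names matched by gene ID for 8 of 8 members. The members were all named. Pathway genes were named where called or among the 2 of a list with the highest level in osteoclast-like nuclei, at most 4 per list, and the similar genes were the 5 with the highest r. The members and lists were chosen with earlier results of these data known. Alternatives were no filter on low counts, no upper limit on genes, all deposited barcodes, muscle clusters kept, no integration, resolution 0.8, members among the features, doublets removed, other thinning and pseudocounts, and each replicate left out. The inhibitor list is given by named genes only, since 1 result of it is not reported here.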

Additional observations from a re-analysis of the deposited data

Results flagged for a closer look

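Members were measured above the uninjured libraries in barcodes that the limits on nuclei leave out, which only the alternatives over all barcodes use. In the 2992 such barcodes of day 3 replicate 2, Ctsk was at 154 CPM (interval 148 to 159), Nfatc1 at 145 CPM, Mmp9 at 76.2 CPM and Acp5 at 61.3 CPM. In the 113 such barcodes of day 5, Ctsk was at 155 CPM (125 to 191), Mmp9 at 130 CPM, Nfatc1 at 125 CPM, Atp6v0d2 at 89.5 CPM and Acp5 at 71.0 CPM. The 264 such barcodes of uninjured replicate 2 had 34.6, 69.2, 11.5, 30.8 and 21.1 CPM of Ctsk, Nfatc1, Mmp9, Atp6v0d2 and Acp5, and the 11 of uninjured replicate 1 had 0 UMIs of each. In day 3 replicate 2, Ctsk was at 28.5 CPM in the barcodes within the limits.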

How the results depend on the processing

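No paired analysis was possible because the replicate numbers follow accession order and pair no samples. Of 96 alternative fits of a member's day 3 change, 85 kept its direction and its side of the threshold, 3 passed the threshold and 8 turned direction. Of 80 alternatives of the myeloid minus stromal differences, 73 kept the direction and 7 turned. Their side of the threshold is not counted. An adjusted p under 0.05 was nearly out of reach of that exact test with 6 libraries and out of reach with 5. Mmp9 was the 1 member called over all nuclei with no filter on low counts (2.32, edgeR adjusted p = 0.0113), and the number of members called ran from 0 to 1 when a replicate was left out (Mmp9 without day 3 replicate 1, 2.84, edgeR adjusted p = 0.0369). In stromal nuclei Mmp9 was the 1 member called with no filter (edgeR adjusted p = 0.0184), and leaving out a replicate gave 0 to 1. In myeloid nuclei it gave 0 to 1, Atp6v0d2. Genes called over all nuclei were 2628 with no filter, 297 with muscle clusters kept, 389 over all deposited barcodes and 258 to 1254 without a replicate. In myeloid nuclei they were 31 with no filter, 115 at resolution 0.8, 76 with members among the features, 0 with doublets removed, 0 with no upper limit on genes, 0 with all barcodes of at least 200 genes and 0 to 198 without a replicate, the highest without uninjured replicate 2. In these fits the median log2 fold change of all myeloid genes moved from 0.13 to 0.34 under DESeq2, to 0.55 with no filter and to 1.12 without uninjured replicate 2. In stromal nuclei they were 1410 with no filter and 470 with no integration. Stromal Ctsk turned to 0.40 with no integration and to 0.0769 with all barcodes clustered. Over left-out replicates, stromal Ctsk ranged from -1.63 to 0.29, Ctsk over all nuclei from -0.0664 (without day 3 replicate 2) to 0.67, Atp6v0d2 over all nuclei from -0.48 (without uninjured replicate 2) to 1.41, Atp6v0d2 in myeloid nuclei from -4.30 to 0.0197 (without uninjured replicate 1) and stromal Nfatc1 from -0.12 (without uninjured replicate 1) to 0.52. With osteoclast-like nuclei left out, Ctsk turned to -0.81, Nfatc1 to -0.37, Oscar to -0.13 and Mmp9 to -0.0782. With uninjured replicate 1, the library with fewer than 50 myeloid nuclei, also left out, Ctsk was -0.57, Oscar -0.16 and Mmp9 -0.0938, and Nfatc1 was back above 0. The osteoclast-like share depended on the clustering. With no integration it was 32.2% at day 5, 79.8% at day 7 and -31.7 points for day 3 minus uninjured, since 451 nuclei then took the name. With all barcodes clustered the last was -10.4. At day 7 it was 8.08% at resolution 0.8 and 8.79% with members among the features. Causes were not tested. Days 5 and 7 have 1 library each, the uninjured libraries 3 and 2 osteoclast-like nuclei, and 3 of the 8 genes did not pass the filter on low counts over all nuclei and were not called without it.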
